A study of Homo sapiens with 13 samples.

Results

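LEF1 was mapped by CUT&RUN in Nalm6, an established human B-cell precursor acute lymphoblastic leukaemia line, and the genomic regions described here are those where its signal ranked lower after 24 h of 5 µM prednisolone. In CUT&RUN an antibody directs a nuclease to its target on chromatin, and the DNA that the nuclease frees is sequenced. Each of 3 control libraries and 3 prednisolone libraries had its own list of LEF1 peaks, from independent experiments. Both groups were grown in medium with charcoal-stripped serum, from which steroids are removed, and they differed by the prednisolone. The controls are labelled as having no treatment, while the treatment protocol names a vehicle. Peaks for TCF7L2, a second factor of the same family, were available from 3 control and 3 prednisolone libraries of the same line. Nalm6 is a single line, so the replicates measure the spread between experiments in it and not between patients.

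A region was chosen when it held 1 of the 20000 strongest LEF1 peaks of every control list and none of the 20000 strongest of any prednisolone list. Strength was the authors' fold over the background modelled by the peak caller MACS2. Top peaks were merged over the 6 lists wherever they overlapped by at least 1 bp, which gave 43042 LEF1 regions. Of these, 707 met the rule, or 1.64%. The opposite pattern, a top peak in every prednisolone list and in no control list, was met by 1012 regions, or 2.35%. A further 5460 regions had a top peak in all 6 lists. Since the LEF1 values chose the 707 regions, those values are given as a description with no test.

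LEF1 is a high-mobility-group-box protein of the TCF/LEF family. In canonical Wnt signalling, β-catenin that escapes degradation enters the nucleus, binds TCF/LEF proteins on DNA and turns on their target genes. Without β-catenin the same proteins recruit corepressors of the TLE family. LEF1 supports the growth of B-cell progenitors and is highly expressed in many acute lymphoblastic leukaemias. Prednisolone activates the glucocorticoid receptor, a transcription factor that both induces and represses genes and that drives apoptosis in lymphoid cells. The title of the series sets glucocorticoid and canonical Wnt signalling against each other, and the regions below are those where LEF1 was relatively stronger without the drug.

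The LEF1 lists held 128863 to 389025 peaks and the TCF7L2 lists 144091 to 395786. Read totals were not used here, so that depth is known only through these lists. The shortest peak of a list was 164 to 165 bp long in LEF1 control 1 and prednisolone 2 and 3, and 187 to 197 bp in control 2 and 3 and prednisolone 1. The same replicates fell together for TCF7L2, with 193 to 201 bp and 158 to 167 bp, and results below are also given within these sets of libraries. Coordinates are on hg19, per the submitters' processing notes. No hg19 sequence or annotation was used here, so no region was assigned to a gene, promoter, exon or intron, and no sequence or motif is given.

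Most of the 707 regions ranked lower after prednisolone and still held a LEF1 peak. In the full prednisolone lists, 680 of them, or 96.2%, kept a weaker peak in all 3 libraries. The same share over all LEF1 regions is not given here, so 96.2% was not read as particular to the 707. The full lists reach down to a p-value of 0.05, and with peaks of a −log10 q of 2 or more alone the share was 43.7%. A further 23 kept one in 2 libraries and 4 in a single library, and none was without a peak in all 3. Of the 1012 regions of the opposite pattern, 84.5% had a peak in all 3 full control lists and 2.67% in none. The median fold over background of the strongest peak in the 707 regions was 6.52, 6.44 and 6.50 in control 1, 2 and 3, where the 20000th peak had a fold of 5.19, 5.10 and 5.03. It was 4.0, 3.71 and 3.67 in prednisolone 1, 2 and 3, where the 20000th peak had 5.10, 4.99 and 4.73. These are bulk libraries, in which fewer cells with LEF1 on a site and less LEF1 on the site in each cell cannot be told apart.

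**Figure D1:**
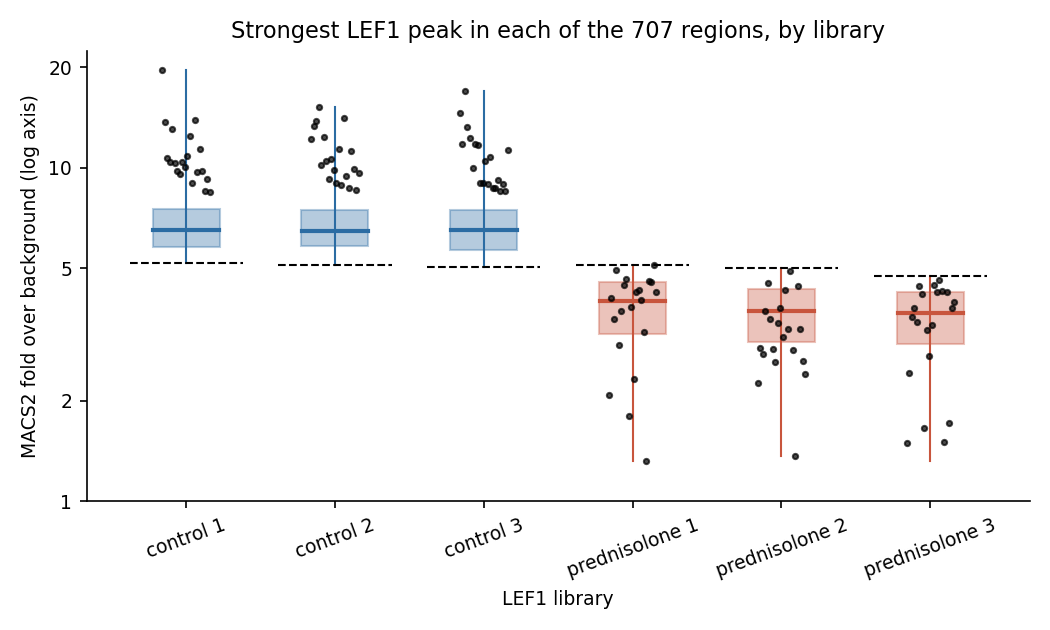
Fold over background, on a log axis, of the strongest LEF1 peak that each of the 707 regions had in each LEF1 library. Boxes span the quartiles with the median as a thick line, thin lines run from the lowest to the highest value, dashed lines mark the fold of the 20000th peak in that list, and points are the 20 regions with the best control ranks. The control medians lie at 6.44 to 6.52 and the prednisolone medians at 3.67 to 4.0, on either side of the dashed lines as the rule requires.

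In the controls the regions lay, by the rule, among the 20000 strongest peaks of each list, at a median rank of 10102, 10494 and 10176 in control 1, 2 and 3. The worst of a region's 3 control ranks ran from 1203 to 19959, with a median of 14987. The median fold in the 5460 regions with a top peak in all 6 lists was 8.32 to 8.75 over the 6 libraries. Many of the 707 regions fell only a little way below the limit in at least 1 prednisolone library: the best prednisolone rank had a median of 27047 and a lower quartile of 22872. When absence was required from the 40000 strongest peaks of every prednisolone list, 146 regions were left, and 51 when it was required from the 60000 strongest. From the 100000 strongest, 17 regions were absent in all 3 prednisolone libraries. These counts were 20.7%, 7.21% and 2.40% of the 707. For the 1012 regions of the opposite pattern, read in the control lists, the shares were 40.0%, 21.3% and 9.88%. The best prednisolone rank came from library 1 in 232 regions, from library 2 in 189 and from library 3 in 286, so that each of the 3 libraries set the limit for a share of the regions. Which regions were chosen also depended on the measure of strength: ranking by the −log10 p-value gave 705 regions, of which 287 were among the 707. Those 287 and the other 420 had like TCF7L2 shares, 21.8% and 19.1% in control and 6.27% and 5.71% after prednisolone, with TCF7L2 peaks read as described below.

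The rule has a limit in the control and in the prednisolone lists. The 5 regions just inside the control limit had a worst control rank of 19910 to 19959, and their best prednisolone ranks were 21187 to 27070. The 5 regions just outside the prednisolone limit had a top peak in all 3 controls, with a worst rank of 8439 to 17464, and in a single prednisolone list, always library 3, at rank 19884 to 19991. These lie at different limits and are not compared. Of those just inside the control limit, chr14:56568195-56568896 had folds of 7.06, 5.10 and 6.50 in the controls and 2.55, 3.88 and 4.25 after prednisolone. Of those just outside the prednisolone limit, chr2:217151316-217152494 had folds of 6.92, 7.20 and 8.34 in the controls and 3.53, 3.23 and 4.73 after prednisolone. Its peak in prednisolone 3 alone kept it out.

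The 20 regions with the best control ranks lay on 12 chromosomes and were 1017 to 3960 bp long. Their control folds were 8.47 to 19.6 and their prednisolone folds 1.32 to 5.10, and all 20 kept a peak in every full prednisolone list. In 7 of them that peak was outside the 40000 strongest of every prednisolone list. The leading region was chr9:128407892-128410772. Its LEF1 fold was 19.6, 12.2 and 14.6 in control 1, 2 and 3, at ranks 125, 1203 and 503. After prednisolone the fold of its strongest peak was 2.08, 2.26 and 1.5, at ranks 194329, 178587 and 127932, near the end of the third list. All 3 controls were thus among the strongest LEF1 peaks of their lists, and all 3 prednisolone libraries among the weak ones.

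The next, chr4:176333956-176336900, had LEF1 folds of 13.7, 13.3 and 11.8 in the controls and of 4.07, 2.89 and 2.42 after prednisolone. The region chr5:157420075-157423495 had 10.7, 13.8 and 17.02 in the controls and 3.53, 2.77 and 3.56 after the drug. In both, every control lay above every prednisolone library, which the rule all but fixes. The TCF7L2 lists had the same order in both, as given below. The region chr18:33052115-33054172 had control folds of 10.4, 15.2 and 13.2. After prednisolone it kept 4.93, 3.71 and 3.79, and in library 1 it ranked 22294, just under the limit.

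Other leading regions differed in how far below the limit they ranked after the drug. At chr15:52771638-52775597 the control folds were 13.1, 10.2 and 12.3, and the prednisolone folds 2.95, 4.51 and 3.44. At chrX:108683190-108684827 they were 10.3, 12.4 and 9.99 in the controls and 3.73, 3.53 and 4.42 after the drug. The region chr11:70436319-70437504 was high in control 1 and 2, with folds of 13.9 and 14.1, and lower in control 3, with 8.71. It kept folds of 4.01, 4.92 and 4.61 after prednisolone, the last 2 at ranks 21031 and 20949, so it is among the leading regions that only just met the rule. At chr2:190526536-190527872, by contrast, the folds were 11.4, 8.70 and 9.20 in the controls and 1.32, 1.37 and 1.5 after prednisolone, so that none of the 3 libraries was near the limit.

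The remaining 12 of these 20 regions lay on chromosomes 1, 2, 4, 5, 7, 9, 15, 17, 22 and X. At chr7:6055015-6056515 the folds were 9.77, 10.4 and 11.8 in the controls and 4.46, 2.87 and 4.17 after the drug. At chr4:76923498-76925614 they were 9.60, 9.22 and 11.7, and then 4.64, 2.61 and 1.65. The region chrX:19763040-19766543 had 10.4, 10.6 and 9.0 in the controls and 1.81, 3.43 and 3.26 after prednisolone. At chr17:34416608-34418691 the control folds were 8.53, 9.90 and 8.95, and the prednisolone folds 4.55, 3.30 and 1.72. Library 3 was thus the lowest of the prednisolone libraries at the regions on chromosomes 4 and 17, and library 1 at the one on chromosome X.

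Whether LEF1 itself differed in libraries that the choice had not used was read by choosing regions on 2 replicate numbers and looking at the third. For this the regions were rebuilt from the 4 lists used. With number 2 left out, 1794 regions had a top peak in both remaining controls and in neither prednisolone list. Of these, 57.1% had a top peak in the left-out control and 25.5% in the left-out prednisolone library. With number 3 left out the shares were 55.5% and 30.8% of 1968 regions, and with number 1 left out they were 49.6% and 39.9% of 2587. The left-out control had the higher share for 3 of 3 numbers. The 3 choices share libraries, so they are not separate checks. The regions read were chosen anew each time and are not the same set as the regions described above.

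The mean difference over the 3 numbers was 22 percentage points, but it ranged from 9.70 to 31.6. Over all regions the left-out control minus prednisolone difference was between −2.02 and 1.61 points, and over regions in all 4 lists used it was between −1.97 and 6.38. The smallest difference came with number 1 left out, where the controls used, 2 and 3, and the prednisolone libraries used, 2 and 3, were also the 2 sets by shortest peak length, and where the 2 left-out libraries had exchanged sets. The part of shortest peak length in that value was not tested. These shares are over regions and have no p-value.

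**Figure D2:**
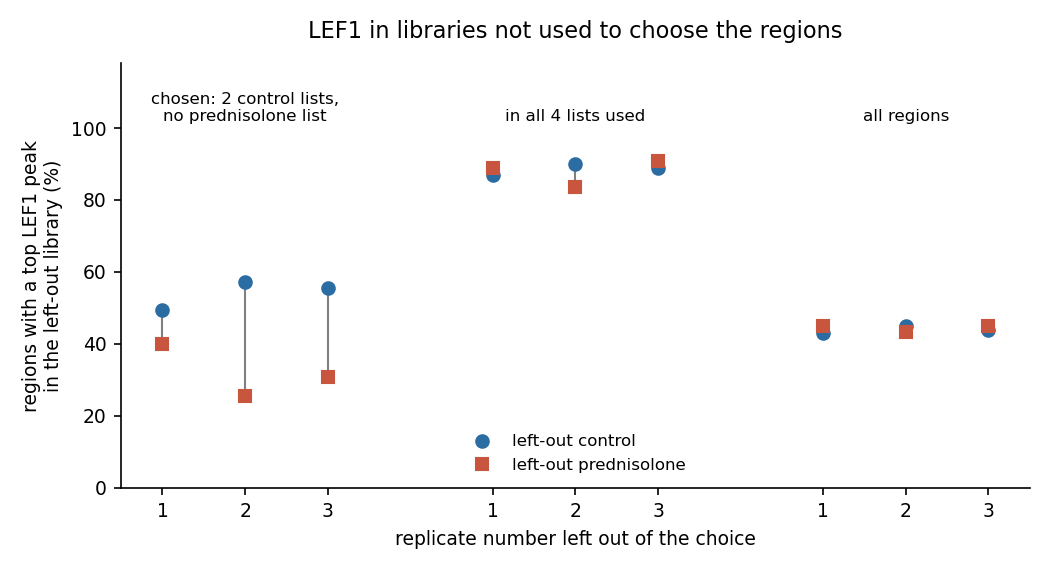
Percent of regions with a top LEF1 peak in the control (circles) and the prednisolone (squares) library that was left out, by the replicate number left out, for regions chosen on the other 2 numbers, for regions in all 4 lists used and for all regions. In the chosen regions the left-out control lies at 49.6% to 57.1% and the left-out prednisolone library at 25.5% to 39.9%, while over all regions both lie at 43.0% to 45.0%.

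TCF7L2 had no part in the choice of the regions, and its top peaks there were also scarcer after prednisolone. TCF7L2, in older usage TCF4, binds the same core sequence as LEF1 through the same kind of domain and is another partner of β-catenin. A top TCF7L2 peak, 1 of the 20000 with the highest fold in a list, lay in 23.1%, 19.0% and 18.7% of the 707 regions in control 1, 2 and 3. In prednisolone 1, 2 and 3 the shares were 6.08%, 6.51% and 5.23%. The means were 20.2% ± 2.45 and 5.94% ± 0.648 (SD, n = 3 each), and every prednisolone library lay below every control library.

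The TCF7L2 shares were also lower after prednisolone over all LEF1 regions, by a smaller factor. Over all 43042 LEF1 regions they were 17.2% ± 1.17 in control and 11.2% ± 1.81 in prednisolone libraries (SD, n = 3 each), so that the share after prednisolone was 0.648 of that in control. In the regions with a top LEF1 peak in all 6 lists the means were 44.3% and 26.8%, a ratio of 0.606. In the 707 regions the ratio was 0.294. In the 1012 regions where LEF1 ranked higher after prednisolone the order was reversed, with 12.8% ± 0.643 in control and 24.5% ± 5.94 in prednisolone libraries. Within the libraries with like shortest peak length, the members' share was 23.1% in control 1 and 5.87% on average in prednisolone 2 and 3, and 18.8% on average in control 2 and 3 and 6.08% in prednisolone 1. No difference between these sets of regions was tested. The LEF1 and TCF7L2 libraries carry the same replicate numbers, and the labels do not say whether they came from the same cultures.

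**Figure D3:**
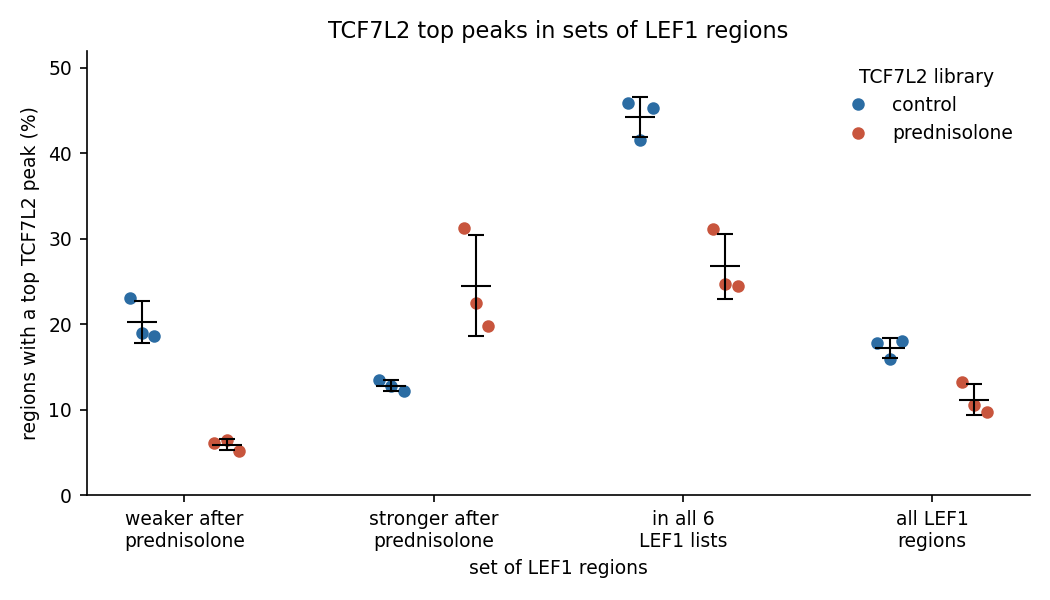
Percent of regions with a top TCF7L2 peak in each TCF7L2 library, for the 707 regions where LEF1 ranked lower after prednisolone, the 1012 where it ranked higher, the 5460 with a top LEF1 peak in all 6 lists and all 43042 LEF1 regions. Points are libraries, and bars the mean and SD of 3 libraries. The prednisolone points lie below the control points in every set but the one where LEF1 ranked higher, where they lie above.

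Counted region by region, 249 of the 707 had a top TCF7L2 peak in more control than prednisolone lists, or 35.2%, and 41 had it in more prednisolone lists, or 5.80%. Over all LEF1 regions these shares were 23.4% and 11.3%. A top TCF7L2 peak in at least 1 control list and in no prednisolone list was found in 220 of the 707, or 31.1%, and the reverse in 30, or 4.24%, against 18.3% and 9.16% of all LEF1 regions. No top TCF7L2 peak was found in any of the 6 lists in 390 of the 707, or 55.2%, near the 58.5% of all LEF1 regions. In the full lists 34, or 4.81%, were without any TCF7L2 peak, against 10.2% of all LEF1 regions. The TCF7L2 peaks were faint: the strongest TCF7L2 peak of a region had a median −log10 q-value of 0.359, 0.230 and 0.221 in control 1, 2 and 3, against 9.30 to 9.73 for LEF1. In prednisolone 1, 2 and 3 this TCF7L2 median was 0.017, 0 and 0. A top TCF7L2 peak is also weaker than a top LEF1 peak: the 20000th peak had a fold of 3.10 to 3.26 for TCF7L2 and 4.73 to 5.19 for LEF1.

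The strict pattern, a top TCF7L2 peak in 3 of 3 controls and 0 of 3 prednisolone lists, was met by 17 of the 707 regions, or 2.40%, against 1.44% of all LEF1 regions. These 17 are 2.75% of the 619 LEF1 regions with that TCF7L2 pattern, whereas the 707 are 1.64% of all LEF1 regions. In the regions with a top LEF1 peak in all 6 lists the pattern was more frequent, at 252 of 5460 or 4.62%, and so was TCF7L2 itself. Among regions with a top TCF7L2 peak in all 3 controls, the pattern was met by 17 of 33 members, or 51.5%, by 252 of 1161 regions in all 6 LEF1 lists, or 21.7%, and by 619 of 2403 LEF1 regions, or 25.8%. Taking regions for their control TCF7L2 peaks by itself favours this pattern, the more so for peaks near the limit. Control TCF7L2 peaks had a median fold of 2.57 to 2.75 in the 707 regions and 3.24 to 3.28 in those in all 6 LEF1 lists. The 3 shares were not matched for that strength, and no difference between them was tested. The opposite TCF7L2 pattern was met by 0 of the 707 and by 0.311% of all LEF1 regions. At so low a share the 0 was not read as a difference from all regions, and none was tested. For a single region the 3-to-0 pattern has p = 0.1 in an exact permutation test, two-sided, the smallest that 3 libraries against 3 allow.

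The number 17 rests on every library. Leaving out TCF7L2 control 1, 2 or 3 gave 31, 37 and 38 regions, since fewer libraries then had to hold the peak, and leaving out a TCF7L2 prednisolone library gave 19 to 21. With the 5000 strongest TCF7L2 peaks per list it was 6, and with peaks of a −log10 q-value of at least 2 it was 9.

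The clearest of these 17 regions was the one on chromosome 4 named above, chr4:176333956-176336900. Its TCF7L2 fold was 10.2, 7.20 and 10.8 in control 1, 2 and 3, at ranks 292, 615 and 363. After prednisolone it was 1.73, 2.82 and 1.91, at ranks 307579, 53770 and 133306. The 2 treatments did not overlap for either factor there, which the choice of the region by both factors all but fixed. At chr2:43286148-43288118 the TCF7L2 folds were 5.66, 6.02 and 6.94 in the controls and 2.72, 2.57 and 1.91 after prednisolone. LEF1 in that region had 8.27, 7.20 and 6.68 and then 4.47, 3.47 and 3.86.

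The region chr9:114799263-114800761 had TCF7L2 folds of 4.40, 6.79 and 6.36 in the controls. After prednisolone it had 3.25 in library 1, no peak in library 2 and 2.00 in library 3. At chr17:34416608-34418691, among the 20 leading LEF1 regions, TCF7L2 had 5.74, 4.10 and 5.96 and then 2.64, 2.32 and 1.59. At chr22:32185292-32186812 it had 4.39, 4.02 and 4.11 in the controls, no peak in prednisolone 1 and 2, and 2.30 in prednisolone 3. The region chr9:131991577-131992897 was without any TCF7L2 peak in all 3 full prednisolone lists, after control folds of 3.90, 4.57 and 3.93. It was the only one of these 17 for which that held.

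The other regions of the 10 with the best control ranks for TCF7L2 were chr5:122032378-122033651, chr1:206522946-206526386, chr17:12399806-12402989 and chr5:139703744-139705447. Their TCF7L2 control folds ran from 3.66 to 6.96. At chr17:12399806-12402989 the folds were 4.49, 3.76 and 6.96 in the controls and 2.72, 2.79 and 2.04 after prednisolone. Both chr5:139703744-139705447 and chr5:157420075-157423495 were also among the 20 leading LEF1 regions. At the latter the TCF7L2 folds were 9.37, 3.29 and 6.06 in the controls, and after prednisolone 3.26, 1.69 and no peak. There prednisolone 1, at rank 21393, and control 2, at rank 13494, lay close to either side of the limit.

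Of the 20 leading LEF1 regions, 16 had a top TCF7L2 peak in at least 1 control list and 2 in at least 1 prednisolone list. Among the 707 these numbered 287 and 97, and among all 43042 LEF1 regions 13931 and 10017. The 20 were taken for strong control LEF1 peaks, where TCF7L2 was more frequent. At worst control ranks of 1 to 5000 the mean control share was 43.1% in the 707 regions and 57.4% in regions in all 6 LEF1 lists. In 15 of the 20 the TCF7L2 control lists with a top peak outnumbered the prednisolone lists, against 35.2% of the 707 and 23.4% of all LEF1 regions. The 3-to-0 pattern was met by 4 of the 20, against 2.40% of the 707 and 1.44% of all LEF1 regions. In 1 of the 20 the prednisolone lists were more: chr2:190526536-190527872 had a top TCF7L2 peak in prednisolone 1 and 2, with folds of 3.52 and 3.13, and in control 3, with 3.87. The TCF7L2 folds of the 2 treatments overlapped there, and the highest was that of a control. The leading LEF1 region on chromosome 9 had a top TCF7L2 peak in control 1 alone, with a fold of 4.29.

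The TCF7L2 share was higher where the control LEF1 peak was stronger, and it was lower after prednisolone at each strength. Among the 24 regions whose worst control LEF1 rank was 5000 or better, 43.1% ± 8.67 had a top TCF7L2 peak in control and 9.72% ± 4.81 in prednisolone libraries (SD, n = 3 each). Among the 104 with a worst rank of 5001 to 10000 these shares were 25% and 7.69%, and among the 227 with 10001 to 15000 they were 19.1% and 5.58%. Among the 352 with 15001 to 20000 they were 18.0% and 5.40%. The ratio of prednisolone to control was 0.226 to 0.308 over the 4 classes of strength. In regions of the same 4 classes with a top LEF1 peak in all 6 lists it was 0.568 to 0.684. The 2 sets were not matched within a class. Control shares in the regions in all 6 lists were higher, at 57.4% against 43.1% in the first class and 31.9% against 18.0% in the last.

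The same ratio also followed the number of prednisolone lists with a top LEF1 peak. With a top LEF1 peak in all 3 controls and in 0, 1, 2 or 3 prednisolone lists, the ratio of TCF7L2 shares was 0.294, 0.403, 0.45 and 0.606. The regions behind these values numbered 707, 1232, 1959 and 5460. The difference in percentage points went the other way, from 14.3 to 14.7, 15.8 and 17.5, as the control share went from 20.2% to 44.3%. A ratio and a difference thus order the sets of regions differently.

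**Figure D4:**
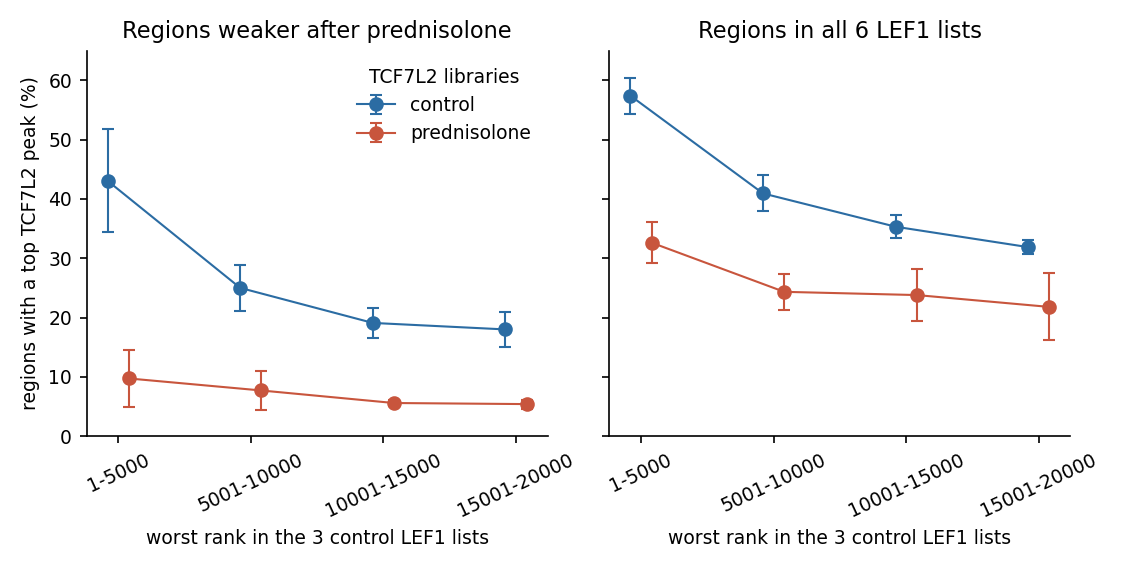
Percent of regions with a top TCF7L2 peak, as the mean and SD of 3 control and 3 prednisolone libraries, by the worst of the region's 3 control LEF1 ranks, for the 707 regions weaker after prednisolone (left) and the 5460 in all 6 LEF1 lists (right). In the left panel the control means run from 43.1% to 18.0% and the prednisolone means from 9.72% to 5.40%.

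The order of control and prednisolone libraries was the same at each length of the TCF7L2 lists tried. With the 5000 strongest TCF7L2 peaks per list, 7.12% ± 1.14 of the 707 regions held one in control and 1.84% ± 0.490 in prednisolone libraries. With the 50000 strongest these shares were 32.6% ± 3.96 and 12.9% ± 3.56, and with the 100000 strongest 43.8% ± 5.29 and 20.7% ± 1.26 (SD, n = 3 each). At each of the 7 lengths from 1000 to 100000, every control library was above every prednisolone library. The same held at each length in the regions with a top LEF1 peak in all 6 lists. The lowest control share there was 4.62% and the highest prednisolone share 4.40% at a length of 1000. Each longer list contains the shorter ones, so the 7 lengths are not separate checks. Over all LEF1 regions the shares at a length of 1000 were 1.37% and 1.32%, and at 5000 they were 7.08% and 5.28%.

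**Figure D5:**
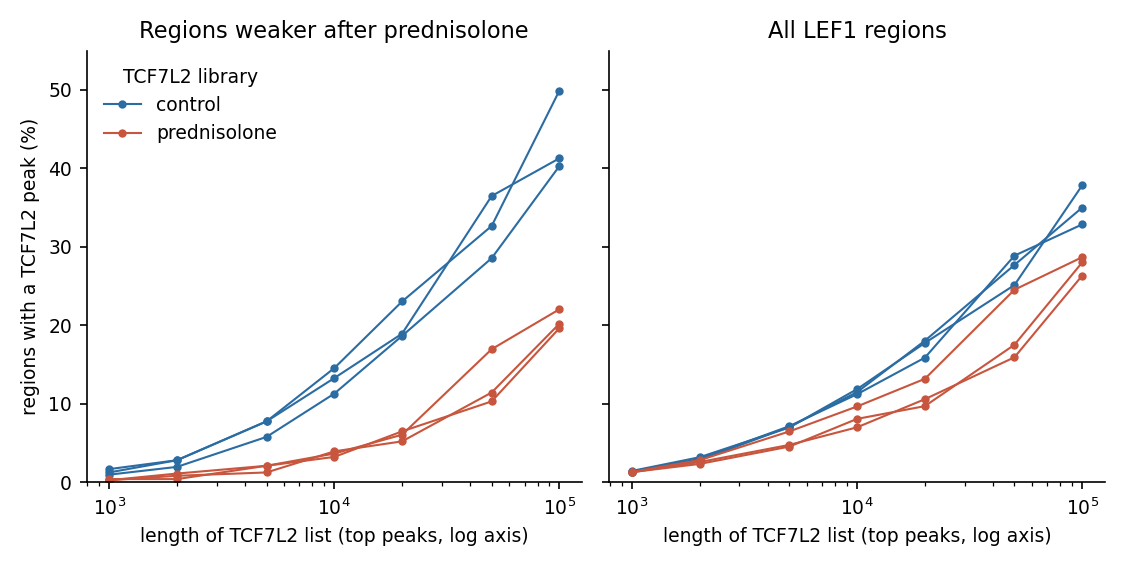
Percent of regions with a TCF7L2 peak against the number of strongest TCF7L2 peaks taken from each list, on a log axis, for the 707 regions (left) and all LEF1 regions (right). Each line is a library, and in the left panel the control and prednisolone lines do not cross at any length plotted.

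The LEF1 peak that remained after prednisolone mostly sat where the control peak had been. The distance from the summit of the strongest control peak to that of the region's strongest prednisolone peak had a median of 124, 150 and 130 bp in prednisolone 1, 2 and 3. It was within 250 bp in 72.6%, 72.5% and 78.4% of the 707 regions that had such a peak. Between the controls themselves the median distance was 54 to 69 bp, with 83.3% to 84.7% within 250 bp. In the regions with a top LEF1 peak in all 6 lists, the prednisolone summits were within 250 bp in 85.0% to 87.0%. The weaker peaks had less certain summits: their summit lay within 100 bp of an edge of the peak in 13.9% to 18.9% of the regions, against 1.98% to 2.69% for the control peaks. The fold is the authors' value for the peak, and its dependence on the summit was not tested.

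TCF7L2 summits lay farther from the LEF1 summit. In control libraries their median distance from the summit of the strongest control LEF1 peak was 232, 204 and 187 bp, and 51.9% to 58.7% were within 250 bp. After prednisolone, 41.7% to 44.7% of the TCF7L2 peaks left in these regions were within 250 bp, with medians of 305 to 350 bp. In the regions in all 6 LEF1 lists the shares within 250 bp were 61.4% to 64.1% in control and 52.5% to 59.0% in prednisolone libraries.

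The 707 regions were 389 to 9000 bp long with a median of 1529 bp, against a median of 1183 bp over all LEF1 regions and of 2272 bp in the regions in all 6 lists. The 1012 regions that ranked higher after prednisolone had a median of 1424.5 bp. The length of a region comes from the peaks merged in it, so it is tied to the rule and was not tested.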

How the data were processed

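CUT&RUN peak lists from 12 libraries were used, 3 for each antibody and treatment. The authors called peaks per sample with MACS2 on hg19, per the submitters' processing notes; the aligner, the MACS2 version, the control library and the filters are not given in the sources used here. The deposited lists give each peak a fold ratio over modelled background, a −log10 p-value, a −log10 q-value, a score that restates the p-value, and a summit. The lowest deposited −log10 p-value was 1.30. These peak values served to rank, filter or describe peaks within a list. Lists were cut to 20000 peaks by fold, ties in file order, and compared by overlap with Python 3.11.15, numpy 2.4.6 and pandas 2.3.3. Ties filled up to 6723 of the 20000 places in a TCF7L2 list and up to 1031 in a LEF1 list.

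The region-finding step was tested on simulated lists with evenly spaced sites and little noise. That setting is simpler than these data, so the test checks the code and not the rate of false calls here. The regions and the rules were chosen with earlier results of these data known. Regions named are the 20 with the best worst control rank, the 10 with the best worst TCF7L2 control rank among those with the 3-to-0 TCF7L2 pattern, and 5 on either side of the limit. Planned motif, promoter and gene list results need an hg19 genome or annotation and were not run. An IgG sample is also listed and was not analysed here. The precision of each comparison is set by 3 libraries per group. Replicate numbers were not used as a block in the main values; the held-out comparison leaves out libraries by number, and the blocked values are given with the alternatives.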

Additional observations from a re-analysis of the deposited data

How the results depend on the processing

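The number of regions, 707, was 705 when peaks were ranked by −log10 p-value, but 287 regions were common to both choices, 40.6% of the one and 40.7% of the other. The TCF7L2 share was 21.8% in control and 6.27% after prednisolone in these 287, and 19.1% and 5.71% in the 420 chosen by fold alone. Absence from 40000 or 100000 prednisolone peaks, chosen after seeing the data, left 146 and 17 regions. Leaving out 1 library loosens the rule by construction and gave 1011 to 1556 regions: 1556, 1336 and 1361 without LEF1 control 1, 2 or 3, and 1275, 1011 and 1080 without LEF1 prednisolone 1, 2 or 3. The share still holding a peak in each full prednisolone list, 96.2%, was 99.2% with 10000 top peaks, 87.3% with 30000, 43.7% when the −log10 q-value had to be 2 or more, and 91.9% to 98.4% with 1 library left out. The TCF7L2 difference of 14.3 percentage points was 11.6 with 30000 top peaks, 8.35 at that q-value, and, with settings chosen after seeing the data, 5.28 and 19.7 with 5000 and 50000 TCF7L2 peaks and 17.2 and 12.7 within the 2 sets of libraries; with 1 library left out it was 10.9 to 15.2. The count of 17 was 9 at that q-value, 6 with 5000 TCF7L2 peaks, and 19 to 38 with 1 library left out. The median width was 1172 to 1676 bp with 1 library left out. Blocking on the replicate number cannot move the difference of 14.3 points, since each number has 1 control and 1 prednisolone library. With that block the exact permutation p of a single region was 0.25 in place of 0.1. Deviations from the group mean were not shared by control and prednisolone libraries of 1 number (Pearson r over regions −0.0447 to −0.0166 for LEF1 and −0.0340 to −0.00462 for TCF7L2). Of 79 recomputed values 43 stayed within the spread allowed and 36 moved. Some of them could not move or had to move by construction, so the tally is not a measure of stability. That spread was wide: 489 regions with 10000 top peaks and 1011 without LEF1 prednisolone 2 were both counted as within it. The differences kept their sign, while counts, shares, widths and p-values cannot change sign.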

Other observations

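The regions where LEF1 ranked lower after prednisolone were spread over the genome, with 1 to 2 per 100 LEF1 regions on most chromosomes. Chromosomes 9 and 22 had the most, with 2.19 and 2.07 per 100, and chromosome X, with 1.23, the fewest apart from Y, which had 0 of 99 regions. With gaps of at most 50 kb, 55 of the 707 regions formed 26 clusters of 2 or 3. The same clustering was not computed for other LEF1 regions. None of the 26 spans held a region where LEF1 ranked higher after the drug. Such regions were 2.35% of all LEF1 regions and the spans held 2 to 13 LEF1 regions each, so the 0 was not read as a separation. Clusters of 3 lay at chr3:9757026-9823323, chr15:68059175-68134082 and chr3:187636297-187715484. The span on chromosome 15 held 8 LEF1 regions, none of them with a top peak in all 6 lists, and the last on chromosome 3 held 13, of which 5 had one. These 3 were named after their values were seen. The leading region on chromosome 9 was 1 of a pair within chr9:128394561-128410772.

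Of the 707 regions, 29, or 4.10%, lay within 50 kb of a region of the opposite direction, by their midpoints. Of the 42030 LEF1 regions other than those of the opposite direction, 7.49% did.

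The 17 regions absent from the 100000 strongest peaks of every prednisolone list were singled out after their values were seen. One of them, chr2:222048793-222050485, had LEF1 folds of 6.24, 6.44 and 5.24 in the controls, a peak in prednisolone 1 alone, with a fold of 2.90, and no TCF7L2 peak in any of the 6 full lists. Another, chr2:153192487-153194481, had LEF1 folds of 7.46, 7.87 and 7.44 in the controls and 2.12, 2.47 and 2.36 after prednisolone, and a top TCF7L2 peak in all 3 controls and in 1 prednisolone list.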
